A study of Mus musculus with 8 samples.

Results

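A set of 10 genes of the epithelial cell border were read in newborn mouse palates after maternal nicotine: Cdh1, Epcam, Cldn3, Cldn4, Cldn6, Cldn7, Ocln, Cgn, Tjp3 and Ezr, 10 of the 18194 genes that have a probe set naming them alone on the array. They are genes of adherens junctions, tight junctions and the apical membrane, taken by symbol, and they were selected on earlier results of these arrays, namely their intensity over saline and the nicotine doses. Their levels and differences are therefore given as a description, without a test. The 10 genes have 17 probe sets, and 9 genes were above the level filter applied to all genes. Cldn6 was below it.

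All pups were BALB/c mice on postnatal day 1, and RNA came from the rear part of the palate. Nicotine at 1.5, 3.0 or 4.5 mg/kg/day, or sterile saline, reached them before birth through an osmotic minipump (a device that releases fluid at a steady rate) set under the skin of the pregnant dam. Each of the 4 groups has 2 arrays, and the saline pups shared the surgery and the pump. The protocol gives a number of 2 for newborn pups, which does not say whether an array held 1 pup or a pool, nor how many litters were used, so every p-value measures the spread between these samples alone. Because each sample is a piece of tissue, fewer epithelial cells and less RNA per epithelial cell cannot be told apart.

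The arrays did not hold palate markers alone. Both saline arrays read high for marker genes of intestine, stomach and liver, saline replicate 2 also for kidney, and nicotine 1.5 replicate 2 for liver and lung. Both arrays at 3.0 mg/kg/day and both at 4.5 read above saline for lung, nicotine 3.0 replicate 1 the most. Since both saline arrays carried such markers, no comparison with saline can be made without them. The comparison of 4.5 with 1.5 mg/kg/day uses no saline array but is not free of liver, lung, intestine or stratified epithelium markers. Intestine markers summed to 1168 and 516 at 1.5 mg/kg/day, against 288 and 497 at 4.5. Stratified epithelium markers summed to 19645 and 2649 at 1.5 mg/kg/day, against 2261 and 3478 at 4.5.

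Epithelial cells hold together through adherens junctions, in which E-cadherin molecules of neighbouring cells bind each other and are anchored inside by catenins. Above them, tight junctions made of claudins and occludin seal the space between cells, and a plaque of scaffold proteins ties them to the actin skeleton. In the palate these genes mark the oral and nasal epithelium that covers the mesenchyme, and the epithelial seam between the palatal shelves is lost when the shelves fuse before birth.

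Cdh1 encodes E-cadherin itself (chromosome 8, 106603350 to 106670247, GRCm38.p6) and was read by 1 probe set. Its deposited intensity was 1432 and 1147 in saline palates, 499 and 468 at 1.5 mg/kg/day, 460.0 and 196 at 3.0, and 101 and 195 at 4.5 mg/kg/day. All 6 nicotine arrays lay below both saline arrays, an order that 12.6% of all genes tested also had. On the scale used for all differences, log2(intensity + 16) after quantile normalization, Cdh1 averaged 10.36 ± 0.27 in saline palates, 9.05 ± 0.17 at 1.5 mg/kg/day, 8.29 ± 0.78 at 3.0 and 7.37 ± 0.61 at 4.5 (SD, n = 2 each). The difference of the mean of the 3 doses from saline was -2.13 ± 0.35 (standard error of the fit), with a 95% interval of -2.95 to -1.30, which is 4.37-fold lower.

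Epcam encodes an epithelial adhesion molecule that binds claudin-7 in the membrane and keeps it stable. It lies on chromosome 17 (87635979 to 87651127). Its intensity was 1008 and 365 in saline palates, 106 and 49.6 at 1.5 mg/kg/day, 36.9 and 25.8 at 3.0, and 13.1 and 30.0 at 4.5 mg/kg/day. The groups of nicotine and saline arrays did not overlap, although the saline arrays themselves differed widely. Over the mean of the doses Epcam was lower by a log2 difference of -3.45 ± 0.45. This was -2.71 without saline replicate 1 and -4.20 without saline replicate 2. A second, dimmer Epcam probe set gave -1.08, and the average of both was -2.27.

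Cldn7, on chromosome 11 (69964779 to 69967886), encodes the claudin that partners with Epcam. It read 612 and 294 in saline palates, 75.9 and 55.9 at 1.5 mg/kg/day, 59.7 and 14.7 at 3.0, and 8.63 and 24.8 at 4.5 mg/kg/day. As in Epcam, saline replicate 1 was above saline replicate 2 and nicotine and saline arrays did not overlap. The difference of the mean of the doses was -3.09 ± 0.44, with a 95% interval of -4.14 to -2.03.

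Cldn4 and Cldn3 encode barrier-sealing claudins, both known as receptors of a clostridial enterotoxin, and their genes are neighbours 39.3 kb apart on chromosome 5 (134945123 to 134946934 and 134986214 to 134987476). Cldn4 was low on all arrays, with 52.7 and 53.9 in saline palates, 44.3 and 23.6 at 1.5 mg/kg/day, 25.5 and 22.2 at 3.0, and 9.76 and 11.6 at 4.5 mg/kg/day. All 6 nicotine arrays were below both saline arrays, and the difference of the mean of the doses was -0.78 ± 0.20. Near background the added 16 shrinks a difference, and with an added 1 it was -1.20.

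Cldn3 differed from its neighbour. Its probe set with the highest level read 86.0 and 118 in saline palates, 104 and 199 at 1.5 mg/kg/day, 180.0 and 90.1 at 3.0, and 108 and 81.9 at 4.5 mg/kg/day. Nicotine and saline arrays overlapped, and the difference of 0.36 ± 0.30 has a 95% interval of -0.36 to 1.08. Cldn3 has 3 further probe sets, which did not show the same pattern. In 2 of them the value at 4.5 mg/kg/day was 13.6 and 28.6 (against 84.2 and 137 in saline palates) and 7.03 and 28.7 (against 76.0 and 129), a log2 difference of -1.61 and -1.70. Both carry Affymetrix's x suffix, which marks probe sets whose probes may bind other transcripts as well. The last probe set read 37.0 and 20.6 at 4.5 mg/kg/day, against 26.2 and 58.6 in saline palates. When the probe sets of Cldn3 were averaged, the difference of the mean of the doses changed sign to -0.20, so the direction for Cldn3 depends on the probe set. All 4 probe sets read highest on nicotine 1.5 replicate 2 and nicotine 3.0 replicate 1, the arrays on which lung markers were highest, and the part of these in the Cldn3 values was not tested.

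Cldn6, on chromosome 17 (23679348 to 23682446), encodes a claudin of embryonic epithelia. It read 9.5 and 76.7 in saline palates and 2.90 to 12.9 on the 6 nicotine arrays. A single array, saline replicate 2, was above the level filter, which corresponds to an intensity of 14.8. That array also read highest for kidney marker genes, with a summed intensity of 2793 for the list against 222 in saline replicate 1. No difference is given for Cldn6.

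The start regions of Epcam, Cldn7, Cldn4 and Cldn3 are printed because the proteins that repress E-cadherin, of the SNAIL and ZEB families, are known to bind the E-box CAGGTG, and because the probe set used for Cldn3 was not lower, unlike that of its neighbour Cldn4. Each window runs from 250 bases before to 50 bases after a RefSeq start on GRCm38.p6. Capitals mark CAGGTG or, where it reads on the other strand, CACCTG.
Epcam promoter, chr17:87635729-87636028, plus strand: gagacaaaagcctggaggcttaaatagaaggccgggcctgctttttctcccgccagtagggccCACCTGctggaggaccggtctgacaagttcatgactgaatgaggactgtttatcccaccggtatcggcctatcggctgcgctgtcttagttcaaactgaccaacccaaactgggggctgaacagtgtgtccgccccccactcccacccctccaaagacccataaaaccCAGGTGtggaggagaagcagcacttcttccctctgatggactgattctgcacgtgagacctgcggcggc
Cldn7 promoter, downstream start, chr11:69965171-69965470, plus strand: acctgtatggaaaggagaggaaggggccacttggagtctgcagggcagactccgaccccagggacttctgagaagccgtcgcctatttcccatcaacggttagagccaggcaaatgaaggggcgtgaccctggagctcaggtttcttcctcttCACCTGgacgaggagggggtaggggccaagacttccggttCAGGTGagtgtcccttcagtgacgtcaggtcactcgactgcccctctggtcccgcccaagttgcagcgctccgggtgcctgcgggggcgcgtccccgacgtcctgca
Cldn4 promoter, chr5:134946885-134947184, minus strand: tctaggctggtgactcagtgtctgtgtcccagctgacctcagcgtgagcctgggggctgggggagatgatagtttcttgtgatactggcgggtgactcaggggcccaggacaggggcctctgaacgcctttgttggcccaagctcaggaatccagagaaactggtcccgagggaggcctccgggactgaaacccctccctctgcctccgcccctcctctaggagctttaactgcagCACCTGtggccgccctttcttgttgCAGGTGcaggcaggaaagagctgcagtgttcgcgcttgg
Cldn3 promoter, chr5:134985964-134986263, plus strand: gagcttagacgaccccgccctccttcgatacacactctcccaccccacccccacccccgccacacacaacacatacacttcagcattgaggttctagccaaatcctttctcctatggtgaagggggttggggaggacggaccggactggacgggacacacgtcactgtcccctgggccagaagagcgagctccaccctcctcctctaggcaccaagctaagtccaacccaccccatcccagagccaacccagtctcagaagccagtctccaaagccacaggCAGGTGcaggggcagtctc
A window was given for 9 of the 10 genes, Cdh1 being the exception, and 3 of these genes have a pair of start sites, so that there are 12 windows, some of which overlap. CAGGTG, searched on both strands, occurred in 9 of the 12 windows and in 7 of the 9 genes (not in Cgn, Ezr or the upstream start of Cldn7), and in 20.2% of all 32851 mouse windows of this length. The wider letters CANNTG, of which CAGGTG is one case, occurred in 10 of the 12 windows and in 72.3% of all windows. AACNNGTT, the core bound by Grainyhead-like proteins, occurred in 1 window, that of Cgn, and in 4.2% of all windows. The letters occurred in the Cldn3 window as well as in that of Cldn4, and such matches describe the sequence, not binding.

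Ocln encodes occludin, the first membrane protein found at tight junctions (chromosome 13, 100496504 to 100552718). It read 164 and 215 in saline palates, 24.9 and 68.4 at 1.5 mg/kg/day, 72.6 and 23.5 at 3.0, and 5.59 and 14.4 at 4.5 mg/kg/day. No nicotine array reached a saline array. The difference was -1.75 ± 0.46 at 1.5 mg/kg/day, -1.67 ± 0.46 at 3.0 and -2.88 ± 0.46 at 4.5, so the values at the 2 lower doses lay within 1 standard error of each other. Values at 4.5 mg/kg/day were near background, and with an added 1 the difference there was -4.08. A second Ocln probe set gave -1.29 for the mean of the doses.

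Cgn encodes cingulin, a plaque protein that links tight junctions to actin and myosin (chromosome 3, 94760069 to 94787725). It read 128 and 109 in saline palates, 37.8 and 31.4 at 1.5 mg/kg/day, 29.4 and 12.03 at 3.0, and 3.87 and 10.3 at 4.5 mg/kg/day. The saline arrays stood well above all others, and the difference of the mean of the doses was -1.87 ± 0.23. A second, dimmer Cgn probe set, between 10.4 and 25.8 on all arrays, went the other way by 0.29. The average of both was -0.79.

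Tjp3 encodes ZO-3, a scaffold that binds the tails of claudins (chromosome 10, 81273188 to 81291581). Its intensity was 80.9 and 54.3 in saline palates, 30.6 and 20.3 at 1.5 mg/kg/day, 21.8 and 13.5 at 3.0, and 13.1 and 6.57 at 4.5 mg/kg/day. It was lower on all 6 nicotine arrays, by -1.24 ± 0.21 over the mean of the doses.

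Ezr encodes ezrin, which fastens the apical membrane and its microvilli to actin filaments (chromosome 17, 6738131 to 6782780). It read 678 and 835 in saline palates, 385 and 374 at 1.5 mg/kg/day, 240.2 and 104 at 3.0, and 101 and 135 at 4.5 mg/kg/day. All nicotine arrays were below both saline arrays, by -1.78 ± 0.28 over the mean of the doses, and the second Ezr probe set gave -1.68.

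**Figure D1:**
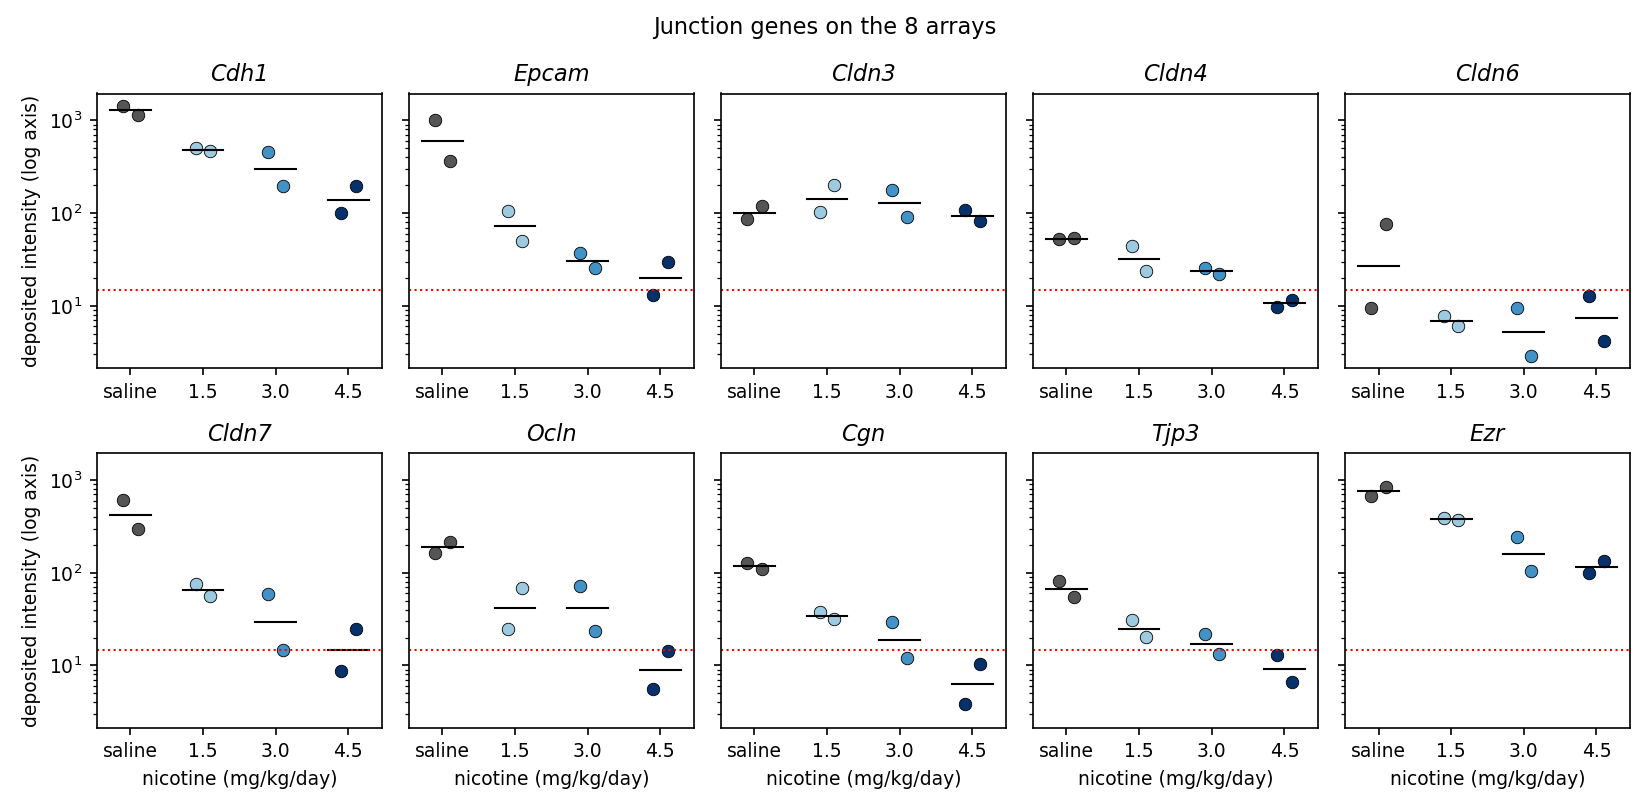
Deposited intensity (log axis) of the 10 genes on each of the 8 arrays, by nicotine dose in mg/kg/day, with saline at the low end; points are arrays, short bars are their geometric means and the dotted line is the level filter of 14.8. In 8 of the 9 genes above the filter, all 6 nicotine arrays sit below both saline arrays, as in 12.6% of all genes tested. Cldn3 overlaps.

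**Figure D2:**
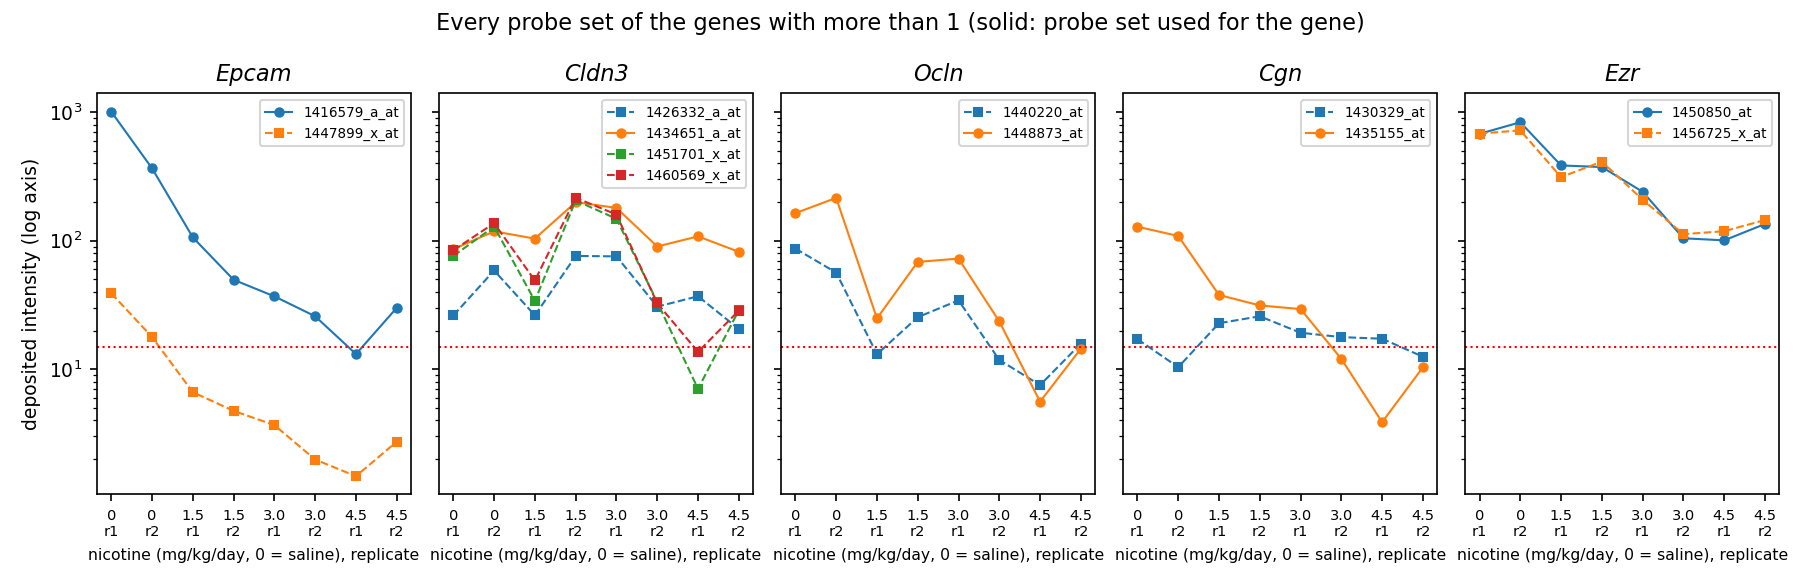
Deposited intensity (log axis) of every probe set of the genes that have more than 1, on each array ordered by dose and replicate (0 is saline), with the level filter of 14.8 as a dotted line. The probe sets of Ocln, Epcam and Ezr run alike, while those of Cldn3 and Cgn diverge.

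Over the mean of the doses, the median log2 difference of the 9 genes above the filter was -1.87, beside 0.07 for all genes tested. In that contrast 5.4% of all genes tested were called lower, past an adjusted p of 0.05 (limma, Benjamini-Hochberg over 13587 genes). The 9 genes were chosen with that contrast known, so no test of them is given. The same holds for the doses, which share the saline arrays and are set side by side only. The median log2 difference of the 9 genes was -1.31, -1.80 and -2.45 at 1.5, 3.0 and 4.5 mg/kg/day, beside 0.04, 0.06 and 0.06 for all genes tested.

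In 7 of the 9 genes the group means were ordered downward at each step of dose, the exceptions being Cldn3 and Ocln, and 8.78% of all genes tested had such an order. In Cdh1 the difference from saline was -1.31 ± 0.42 at 1.5 mg/kg/day, -2.08 ± 0.42 at 3.0 and -2.99 ± 0.42 at 4.5. In Ezr it was -0.86 ± 0.34, -2.09 ± 0.34 and -2.41 ± 0.34. In Epcam, where the first dose already gave -2.75 ± 0.56, the higher doses gave -3.63 and -3.98. Between 4.5 and 1.5 mg/kg/day, which needs no saline array, the difference was -1.68 ± 0.42 in Cdh1, -1.55 ± 0.34 in Ezr, -1.31 ± 0.54 in Cldn7 and -1.23 ± 0.56 in Epcam. Both arrays at 4.5 mg/kg/day were below both at 1.5 mg/kg/day in 8 of the 9 genes, as in 18.6% of all genes tested. No gene of the whole array passed the adjusted threshold in this comparison (0% of 13587 in either direction). At an unadjusted p under 0.05 by limma, 414 genes were lower and 549 higher. The 9 genes were chosen with their values over the doses known, so no test of them is given and nothing is read from their counts here.

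**Figure D3:**
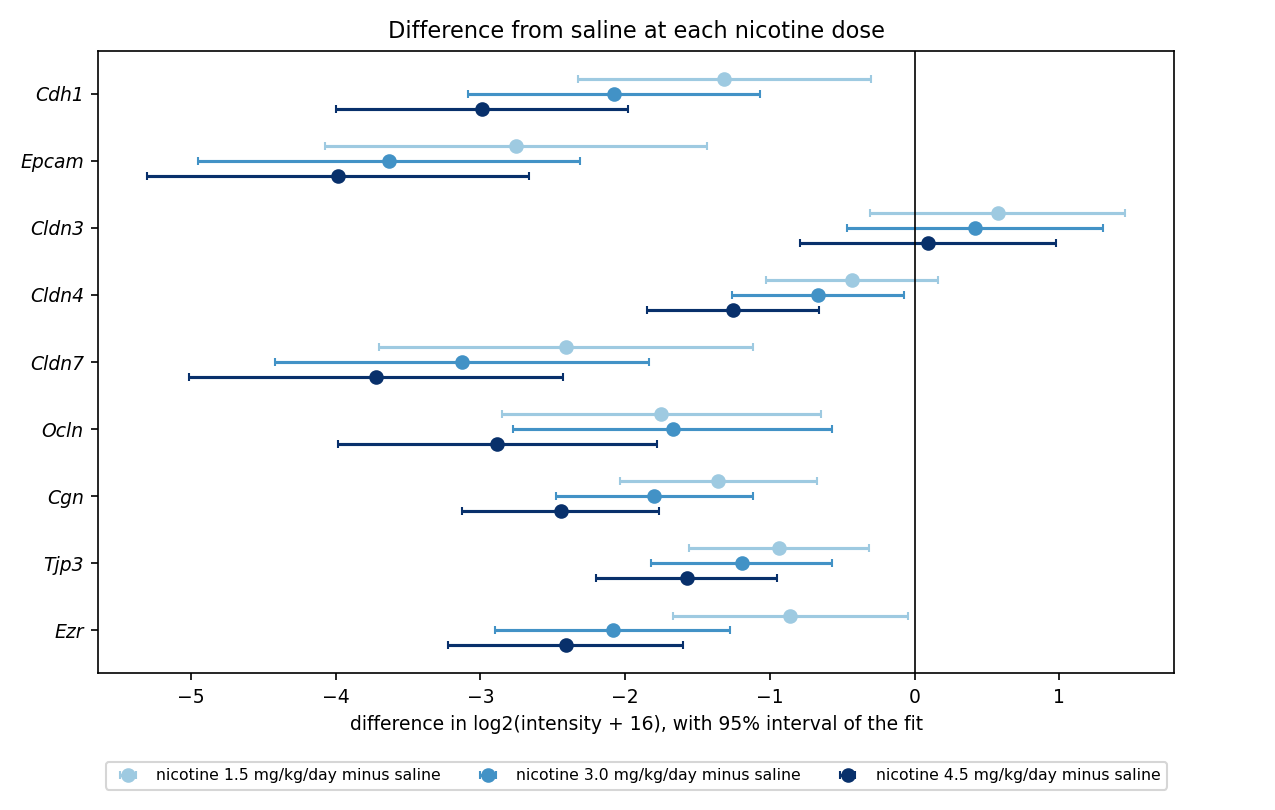
Difference of each nicotine dose from saline on the log2(intensity + 16) scale for the 9 genes above the level filter; points are fitted differences and bars are 95% intervals. Cdh1 steps down over the doses to -2.99 at 4.5 mg/kg/day, Epcam reaches -3.98, and the Cldn3 intervals all include 0.

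The wider set of junction genes was read to see how far the lower levels reached. Its lists, like those of regulators below, were chosen with earlier results of these arrays known, so their counts are no independent support. Of 72 other genes of adherens junctions, tight junctions and the apical membrane, listed by function, 67 had a probe set and 61 were above the filter. Over the mean of the doses 17 of these fell and 3 rose, beside 5.4% of all genes lower and 4.75% higher, and the median difference was -0.34 beside 0.07 for all genes. All 6 nicotine arrays lay below both saline arrays in 19 of the 61 genes and above them in 8, beside 12.6% and 16.8% of all genes. The 20 calls were 11 without saline replicate 2, 12 without either array at 3.0 mg/kg/day and 13 without nicotine 4.5 replicate 1.

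Among 20 other membrane proteins of tight junctions, 8 fell and 2 rose. Cldn2, which forms pores for sodium in gut and kidney, read 27.9 to 44.6 on the 6 nicotine arrays, against 549 and 595 in saline palates (-3.49 ± 0.16, adjusted p = 0.000121, limma). At every dose it lay far below both saline arrays, and the difference between 4.5 and 1.5 mg/kg/day was -0.06, with a 95% interval of -0.52 to 0.39. Cldn8, a claudin of kidney and colon, read 5.50 to 35.8 on nicotine arrays, against 432 and 362 in saline palates (-3.87 ± 0.31, adjusted p = 0.00136, limma). Igsf5, a junctional adhesion molecule, fell by 3.05 ± 0.26 (adjusted p = 0.00153, limma). Marveld2, the tricellulin found where cell corners meet, fell by 1.91 ± 0.25 (adjusted p = 0.00923, limma). The 2 that rose, named after their values were seen, are known from blood vessel endothelium: Cldn5 by 1.25 ± 0.30 and Jam2 by 1.15 ± 0.23 (adjusted p = 0.0475 and 0.0294, limma). Neither call held without saline replicate 2 (0.167 and 0.111), without either array at 3.0 or without either array at 4.5 mg/kg/day, nor did Cldn5 without saline replicate 1 (0.0975), in a range of 0.0191 to 0.167 and 0.0161 to 0.111 over all alternatives. Cldn5 passed in 4 and Jam2 in 9 of 18 alternatives.

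Of 15 other plaque and polarity proteins 2 fell and 1 rose, with a median difference of -0.05. Crb3, which sets the apical side of epithelial cells, fell by 1.81 ± 0.35, and its partner scaffold Patj by 1.11 ± 0.24 (adjusted p = 0.0269 and 0.0362, limma). Amotl1, an angiomotin-family protein, rose by 0.95 ± 0.22 (adjusted p = 0.0424, limma). Without saline replicate 2 none of these 3 calls held, and the difference of Amotl1 was then 0.57. With array weights none held either (adjusted p = 0.0707 for Crb3, 0.106 for Patj and 0.0794 for Amotl1, limma). The Crb3 call held in 12, that of Patj in 8 and that of Amotl1 in 7 of 18 alternatives. Probe sets above the filter ranged from -1.81 to -0.54 in Crb3 and from 0.17 to 1.30 in Amotl1. With its probe sets averaged, Patj had a difference of -0.55 (adjusted p = 0.073, limma). The large scaffold Mpdz had a difference of 0.66 ± 0.18 (adjusted p = 0.0601, limma). Tjp1, which encodes the general scaffold ZO-1 and was looked up after values were seen, read 506 to 865 on nicotine arrays and 739 and 704 in saline palates, with a difference of -0.10 ± 0.16.

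The other adherens junction proteins had 2 of 15 lower and none higher past the threshold. At an unadjusted p under 0.05 by limma 2 were higher, beside 17% of all genes tested. Cdh17, the cadherin of intestinal epithelium, read 1.41 to 47.5 on nicotine arrays, against 1178 and 199 in saline palates (-4.30 ± 0.65, adjusted p = 0.0137, limma). The saline arrays differed widely, and the difference was -3.03 without replicate 1 of them and -5.58 without replicate 2. Nectin3, an adhesion protein that joins cells beside cadherins, fell by 1.05 ± 0.24 (adjusted p = 0.0408, limma). Its 5 probe sets above the filter ranged in difference from -1.05 to -0.10. With its probe sets averaged the difference was -0.49 and did not pass the test (adjusted p = 0.0897, limma). The Nectin3 call did not hold without either saline array, and it held in 7 of 18 alternatives. Nectin1 had a difference of 0.44 and Cdh5, the cadherin of endothelium, of 0.70 (adjusted p = 0.112 and 0.146, limma). Ctnnb1, which encodes the beta-catenin that anchors E-cadherin and is present in most cell types, had a difference of -0.34 ± 0.19 that did not pass the test (adjusted p = 0.261, limma), and it was looked up after values were seen.

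Apical and Epcam-related proteins had 5 of 11 lower and none higher. None was higher at an unadjusted p under 0.05 by limma, beside 17% of all genes tested. St14 encodes matriptase, a membrane protease of epithelia, and Spint1 and Spint2 encode its inhibitors. Spint2 read 115 to 343 on nicotine arrays, against 1146 and 1027 in saline palates (-2.25 ± 0.23, adjusted p = 0.0035, limma). Spint1 read 25.6 to 91.0 on nicotine arrays, against 336 and 254 in saline palates (-2.11 ± 0.21, adjusted p = 0.00284, limma). St14 fell with them by 1.56 ± 0.16 (adjusted p = 0.00327, limma). Vil1, the microvillus protein villin, read 4.19 to 53.5 on nicotine arrays, against 884 and 248 in saline palates (-3.68 ± 0.53, adjusted p = 0.0117, limma). It was -2.76 without saline replicate 1 and -4.59 without saline replicate 2. Vil1, Cdh17 and Cldn2 are known from intestinal epithelium, and intestine markers were likewise high in both saline arrays, and their part in these falls was not tested.

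By dose, 8 of the 61 fell at 1.5 mg/kg/day, 10 at 3.0 and 14 at 4.5, where Jam2 also rose. In all genes tested 1.75%, 2.38% and 3.97% were called lower at these doses, and 0.729%, 1.35% and 2.91% higher. Cldn2, Cldn8, Igsf5, Spint1, Spint2 and St14 passed the test at each dose. Single arrays weighed on these counts. At 1.5 mg/kg/day there were 3 calls without either array at 1.5 or at 3.0 mg/kg/day, 4 without either at 4.5, and 13 without saline replicate 1. At 3.0 mg/kg/day there were 3 and 1 without nicotine 3.0 replicate 1 or 2, 6 without either array at 4.5, and 17 without saline replicate 1. The 15 calls at 4.5 mg/kg/day were 7 and 6 without nicotine 4.5 replicate 1 or 2 and 8 without either array at 3.0. Between 4.5 and 1.5 mg/kg/day none of the 61 passed by limma. At an unadjusted p under 0.05 by limma 5 were lower and none higher, beside 3.05% and 4.04% of all genes tested. The median difference there was -0.18, against -1.13 for the 9 chosen genes and -0.00034 for all genes tested.

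**Figure D4:**
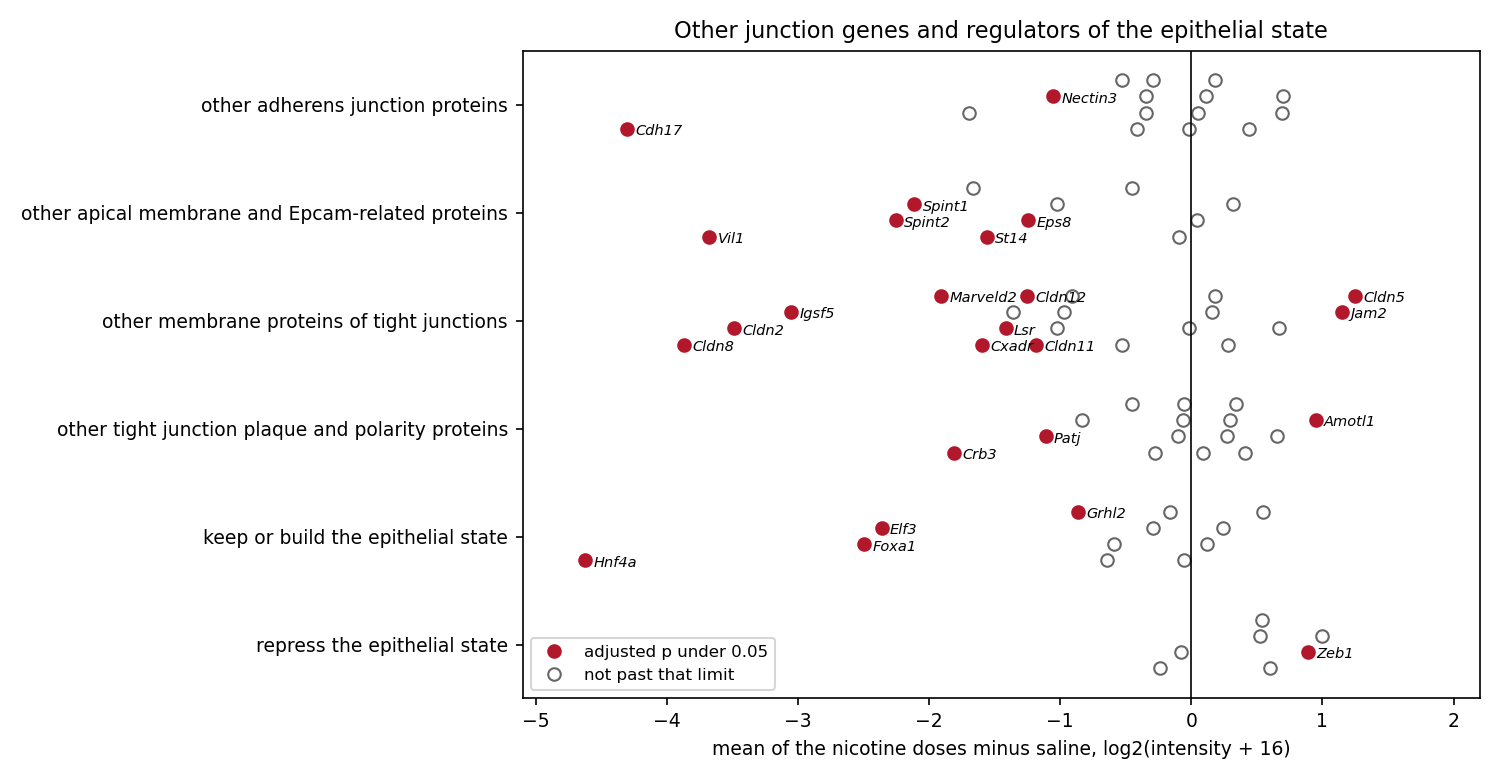
Difference of the mean of the nicotine doses from saline, on the log2(intensity + 16) scale, for each of the 61 other junction genes and 19 regulators above the level filter, in rows by list; filled, named points passed an adjusted p of 0.05 and open points did not. The points farthest left are Cdh17, Cldn8, Vil1, Cldn2 and Igsf5 among junction genes and Hnf4a among regulators.

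Regulators of the epithelial state were read because some of them are known to act on many junction genes at once. Of 12 transcription factors that build or keep epithelia, 4 fell and none rose, beside 5.4% of all genes tested called lower and 4.75% higher. None was higher at an unadjusted p under 0.05 by limma, beside 17% of all genes tested. Elf3, an ETS-family factor of simple epithelia, read 6.47 to 38.7 on nicotine arrays, against 194 and 174 in saline palates (-2.36 ± 0.23, adjusted p = 0.00284, limma). Grhl2, known as a direct activator of Cdh1 and Cldn4, read 18.9 to 46.8 on nicotine arrays, against 87.6 and 63.9 in saline palates (-0.86 ± 0.15, adjusted p = 0.0205, limma). A second Grhl2 probe set above the filter gave -0.0076. The Grhl2 call did not hold without saline replicate 1, either array at 3.0 mg/kg/day or nicotine 4.5 replicate 1 (adjusted p = 0.0512 to 0.0742, limma, in a range of 0.0165 to 0.0742 over all alternatives). Foxa1, a factor of endoderm epithelia, fell by 2.49 ± 0.41 (adjusted p = 0.0170, limma), and without saline replicate 1 its adjusted p was 0.0541, in a range of 0.0132 to 0.0825. Hnf4a, a factor of liver, gut and kidney, read 2.24 to 151 on nicotine arrays, against 696 and 826 in saline palates (-4.62 ± 0.49, adjusted p = 0.0039, limma). The probe sets of Hnf4a differed in direction, and a dimmer one gave 0.38 when it was taken with an added 1.

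Of 7 repressors of the epithelial state 1 rose and none fell, beside 4.75% of all genes tested called higher and 5.4% lower. Zeb1, a known repressor of Cdh1, read 355 to 429 on nicotine arrays, against 244 and 200 in saline palates (0.89 ± 0.14, adjusted p = 0.0154, limma). Its 3 probe sets ranged in difference from -0.01 to 0.89, and their average did not pass the test (adjusted p = 0.0657, limma), nor did Zeb1 pass without saline replicate 2 (0.0638, in a range of 0.00921 to 0.0663 over all alternatives). Zeb1 is also expressed in mesenchyme, whose markers had a list median of 11.76 to 12.30 log2 units on nicotine arrays, against 11.60 and 11.51 in saline palates. Snai1 had a difference of 0.54, Prrx1 of 0.995 and Twist1 of 0.52, none past the test (adjusted p = 0.247, 0.111 and 0.461, limma). Prrx1 was 1.63 without saline replicate 1, where it passed (adjusted p = 0.0222, limma, in a range of 0.0222 to 0.471 over all alternatives), and 0.36 without saline replicate 2. Twist1 was 1.09 and -0.038 in these fits.

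Likeness in profile was taken as Pearson correlation over the 8 arrays, given without a p because the arrays share their groups. Outside the 10, the genes closest to the median profile of the 9 above the filter were Rpn1 (r = 0.982), Spint2 (0.982), Epb41l4b (0.979), Spint1 (0.979) and Krt19 (0.976). The keratin Krt19 was also the gene most like Cdh1 alone (r = 0.989), followed by Mpzl1 (0.983) and Grhl2 (0.979). Krt19 read 793 and 510 in saline palates, 218 and 163 at 1.5 mg/kg/day, 186 and 38.0 at 3.0, and 23.9 and 38.2 at 4.5 mg/kg/day, with nicotine 3.0 replicate 1 well above its partner as in Cdh1, Cldn7, Ocln, Cgn and Ezr. Within the 10, the correlation with Cdh1 was highest for Cgn (0.987) and Cldn7 (0.966), and lowest for Cldn6 (0.447) and Cldn3 (-0.06).

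Markers of the tissue itself were checked against the label. Of 11 palate patterning genes, 5 to 7 per array were above the 60th percentile of all probe sets, among them Osr2 at 43.0 to 155 and Meox2 at 72.2 to 450.2, while Tbx22 was at 2.17 to 5.67 on every array. Barx1, Pax9 and Lhx8 were above that percentile on no array either, and Msx1 on 1. Mesenchyme and skeletal muscle markers were high on all arrays, with list medians of 11.51 to 12.30 and 11.55 to 12.57 log2 units. Intestine and stomach markers, like most of the junction genes, were lower on all nicotine arrays than on both saline arrays. Liver and lung markers did not keep to this split. Intestine markers had a summed intensity of 288 to 1168 on nicotine arrays, against 19425 and 9272 in saline palates, with 2 to 6 of 15 above the 60th percentile on nicotine arrays, against 13 and 12 in saline palates. Stomach markers summed to 176 to 206 on nicotine arrays, against 10974 and 10587 in saline palates, with 1 or 2 of 11 above that level, against 8 and 9. The top genes were Fabp2, an intestinal fatty acid carrier, at 11.4 to 138 on nicotine arrays, against 4770.4 and 3095 in saline palates, and Cym, a milk-clotting enzyme of the infant stomach, at 5.2 to 11.9, against 5168 and 4999.9. Across doses Fabp2 read 138 and 64.8 at 1.5 mg/kg/day and 11.4 to 14.6 on the other 4 nicotine arrays.

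The keratins of simple epithelium, which line gut and glands, were lower in the same arrays as Cdh1, with a summed intensity of 239.7 to 1318 on nicotine arrays, against 4604 and 3521 in saline palates. The 10 junction genes summed to 376 to 1315 on nicotine arrays, against 4251 and 3268 in saline palates. Liver markers were high in both saline arrays and in nicotine 1.5 replicate 2, and lung markers, led by the surfactant gene Sftpc, summed to 546 and 550.2 in saline palates, 183 and 13086 at 1.5 mg/kg/day, 14967 and 5260.3 at 3.0, and 1586 and 2806 at 4.5 mg/kg/day. Stratified epithelium markers, those of oral lining and skin, did not follow Cdh1: they summed to 1889 to 19645 on nicotine arrays, against 2885 and 1434 in saline palates, with the top gene Krt10 at 5367 in nicotine 1.5 replicate 1. No listed marker was at 0 on any array. The share of the other organs in the junction gene differences was not tested. With saline replicate 2 and nicotine 1.5 replicate 2, the arrays highest in liver markers, both left out, the difference of the mean of the doses was -2.28 in Cdh1, -4.03 in Epcam, -3.55 in Cldn7, -2.06 in Ocln, -1.89 in Cgn, -1.64 in Ezr, -1.35 in Tjp3, -0.60 in Cldn4 and 0.47 in Cldn3. The saline array kept there was the highest of all in summed intestine and stomach markers and read 12701 in summed liver markers, so other organs were not removed.

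RNA quality moved with the groups too. The ratio of the 3' to the 5' actin control probe set was 1.74 and 1.65 in saline palates, 1.39 and 1.20 at 1.5 mg/kg/day, 1.14 and 1.05 at 3.0 and 1.15 and 0.954 at 4.5, and its part in the differences was not tested. One array, nicotine 3.0 replicate 1, read 9.01 for a poly-A spike-in that read 1061 to 1672 on the others, while a hybridization control was at 1047 to 1378 on all arrays.

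**Figure D5:**
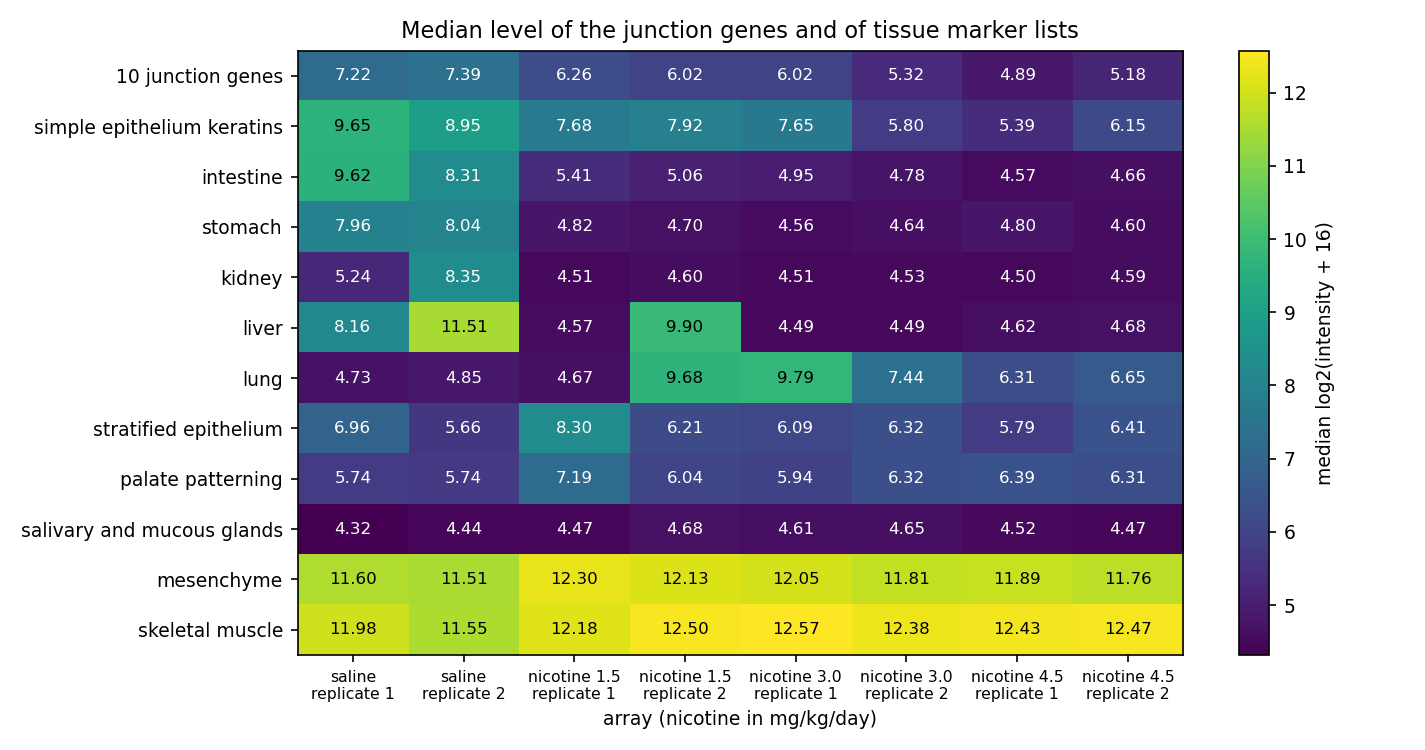
Heat map of the median log2(intensity + 16) of the 10 junction genes and of 11 marker lists (rows) on each array (columns, by nicotine dose in mg/kg/day with saline at the low end), with the median written in each cell. The junction genes and the simple epithelium keratins are lower at 4.5 mg/kg/day than in saline palates. The intestine and stomach lists are high in saline palates alone, and the lung list peaks on nicotine arrays. The stratified list peaks on a single array, nicotine 1.5 replicate 1 (8.30), with saline replicate 1 next (6.96).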

How the data were processed

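RNA of 8 newborn palate samples (4 groups of 2) was measured on Affymetrix arrays. The authors deposited 1 linear intensity per probe set and array; the sources used here do not state the summarization, background correction or scaling. Array medians lay between 20.7 and 25.4 and means between 121 and 139. The number of arrays limits the precision.

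Values were taken as log2(intensity + 16), which understates differences near background, and quantile-normalized, because array medians on this scale differed by 0.17. Of 45101 probe sets, 34958 named 1 gene in the platform annotation (34754 matched the reference gene table) and 932 named several and were left unnamed. Each gene took its probe set with the highest mean. Genes above the 40th percentile of probe-set means (log2 4.94, intensity 14.8) were tested, 13587 of 18194.

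A limma 3.58.1 model (R 4.3.3) with 1 mean per group took in all 8 arrays (lmFit and eBayes, two-sided, 4 residual degrees of freedom). P-values were adjusted by Benjamini-Hochberg over all genes tested, with calls at 0.05, and the procedure was tested on simulated data. The members and lists were chosen with earlier results of these data known. Named genes are the 10 members and up to 4 genes with the smallest p per list. Also named are the 5 genes most like the median profile of the 9 members above the filter and the 3 most like Cdh1. The top gene of a marker list was named too, and others are said to be chosen after their values were seen. Alternatives varied the added constant, level filter, normalization, probe-set choice, array weights, replicate block, groups in the fit and the arrays left out. Replicate numbers were not treated as pairs. Start-region sequences are RefSeq's (GRCm38.p6).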

Additional observations from a re-analysis of the deposited data

How the results depend on the processing

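Over the mean of the doses, 1380 genes were called (734 lower, 646 higher). Estimated array weights left 618 and the replicate block 849, and leaving out 1 array gave 349 to 1542. With values as deposited the split was 926 lower and 346 higher. The 20 other junction genes called became 12 with array weights and 13 with the replicate block, and 11 to 20 without 1 array. At 1.5 mg/kg/day the 8 calls became 3 with an added 1, 2 with array weights, 4 with the replicate block and 1 in a fit of the compared groups alone, and 3 to 13 without 1 array. At 3.0 mg/kg/day the 10 calls became 6 at the 60th percentile filter, and 1 to 17 without 1 array. At 4.5 mg/kg/day the 15 calls became 6 to 19 without 1 array. Between 4.5 and 1.5 mg/kg/day the count of 0 became 1 (Cdh17, -1.74 ± 0.22, adjusted p = 0.0319, limma) when saline replicate 2 and nicotine 1.5 replicate 2 were both left out. The labels do not say whether same-numbered arrays share a litter or batch. Deviations of same-numbered arrays correlated from -0.22 to 0.33 between groups, and arrays did not each correlate best with their own number. With 2 arrays per group such correlations cannot show whether the arrays are paired.

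The difference of Hnf4a reversed to 0.38 with an added 1, where a dimmer probe set became the one with the highest mean, and Twist1 to -0.038 without saline replicate 2, in a range of -0.038 to 1.09 without 1 array. Of 425 values of the other named genes under alternatives, 370 kept direction and side of the threshold, 50 lost the call and 3 gained it. Cldn2, Cldn8, Igsf5, Marveld2, Cdh17, Spint1, Spint2, St14, Vil1 and Elf3 passed over the mean of the doses under every alternative that tested them there. The differences of all members but Cldn3 and the untested Cldn6 stayed below 0 under every alternative run. Of 831 member values, 58 moved past a limit set as a multiple of the standard error of the main fit. The causes of these moves were not tested. Values under the filter's intensity of 14.8 limit Epcam, Cldn4, Cldn7, Ocln, Cgn and Tjp3 at the higher doses.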
